A study of Homo sapiens with 12 samples.

Results

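The 42 genes described here act in mitosis, and they were taken from a list of symbols that holds cyclins, mitotic kinases, kinesin motors, centromere and checkpoint proteins, spindle factors and cytokinesis factors. All 42 were found among the 60483 genes of the deposited count table, and all 42 were among the 14412 genes with enough counts to be tested. The data are RNA sequencing libraries of REC1 cells, a human line established from mantle cell lymphoma and grown in medium with fetal bovine serum and antibiotics. The cells received ibrutinib together with SPX5551 (the combination), ibrutinib alone, SPX5551 alone, or the solvent DMSO, and were collected at 4, 8 and 12 h. Ibrutinib is a covalent inhibitor of BTK, a kinase that carries the signal of the B-cell receptor, and SPX5551, called pol5551 in the column headers, is known as an antagonist of CXCR4, the chemokine receptor whose inhibition the study's title names. The sources used here give no doses.

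Each treatment and time had 1 library, 12 in all, so the 3 times of a treatment (n = 3) or the 4 treatments of a time (n = 4) stood in as replicates. The labels do not say whether the libraries came from separate cultures, and every p-value measures only the spread between these samples. Library totals ranged from 19336303 to 28934030 counts, and the lowest count of any mitosis gene in a library was 156, for CDC25C. The titles and treatments of the samples match the column headers, but the free-text descriptions name columns of other treatments, and the values below follow the headers. The labels also name genomic DNA as the molecule, whereas their protocol describes poly(A) RNA. The B-cell marker MS4A1 had 717 to 891 CPM (counts per 1000000 counts of a library, scaled) over the 12 libraries, CD79A had 709 to 1210 CPM, CD79B 480 to 827 CPM, PAX5 292 to 700 CPM and CD22 55.3 to 127 CPM. CCND1, the cyclin of mantle cell lymphoma, had 1270 to 1760 CPM, while SOX11 had only 4.41 to 7.2 CPM. The 5 T-cell markers summed to 6.62 to 9.96 CPM and the 4 myeloid markers to 0.413 to 1.34 CPM, and S100A8 had no count in any library. The 5 stromal and epithelial markers summed to 23.3 to 58.6 CPM, of which PDGFRB made 15.5 to 49.1 CPM, and COL1A2 had at most 0.0711 CPM.

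Of the 12 libraries, 2 stood apart from the others of their time. The ibrutinib library at 8 h was closest to the DMSO library at 12 h (r = 0.992 across tested genes), and its log2 CPM relative to the mean of the gene increased with transcript length. Spearman's rho across genes was 0.41 in that library, whereas it was -0.3 for the combination, -0.4 for SPX5551 and -0.3 for DMSO at 8 h. The SPX5551 library at 12 h was closest to the SPX5551 library at 8 h (r = 0.992) and had a rho of -0.38, whereas rho was 0.24 for the combination, 0.32 for ibrutinib and 0.37 for DMSO at 12 h. Counts of called genes, module means and several single-gene changes are therefore given with and without these 2 libraries. Both were singled out with results of these data known. Leaving them out can therefore make a p-value too small. Changes, counts and p-values without them show how a result moves and are no added support for it.

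Mitosis genes are transcribed in a wave that climbs through the G2 phase of the cell cycle and ends after division, and their summed level in a culture follows the share of cells in that window as well as transcription within each cell. In libraries from bulk cells, fewer cells in G2 and mitosis and less RNA per cell cannot be told apart. Transcription of this wave is known to depend on the MuvB complex with the factors B-MYB and FOXM1, which binds promoters through an element called CHR, and on NF-Y, which binds CCAAT boxes. Entry into mitosis is driven by CDK1 with cyclin B after CDC25 phosphatases activate it, and exit follows when the anaphase-promoting complex with CDC20 marks cyclin B and securin for degradation.

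The RefSeq promoter table (GRCh38.p14) held windows from 250 bases before to 50 bases after the start for 36 of the 42 genes, 45 windows in all. The CHR element, searched as TTTGAA on both strands, was in 31 of the 45 windows (68.9%), against 15.2% of all 35116 windows in the table, and within 50 bases of the start in 25 of them (55.6%), against 4.6%. The CCAAT box, searched as CCAAT on both strands, was in 34 windows (75.6%), against 34.6% of all windows, and both motifs were in 26 (57.8%), against 5.9%. These matches describe letters in a window and not bound sites. The 6 promoters below are shown because their genes carry the time patterns and treatment differences described further on. Each gives the 150 bases before the RefSeq start, 5′ to 3′ on the strand of the gene, with both motifs in capitals on either strand. Where capitals run on, 2 motifs touch or overlap. GENCODE release 29 puts the first base of the gene before the RefSeq start for all of these except MKI67.
CDC20, chr1:43358831-43358980, plus strand: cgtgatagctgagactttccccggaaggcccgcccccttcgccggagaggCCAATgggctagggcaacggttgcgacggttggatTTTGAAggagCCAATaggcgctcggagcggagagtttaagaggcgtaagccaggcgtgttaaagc
PLK1, chr16:23678739-23678888, plus strand: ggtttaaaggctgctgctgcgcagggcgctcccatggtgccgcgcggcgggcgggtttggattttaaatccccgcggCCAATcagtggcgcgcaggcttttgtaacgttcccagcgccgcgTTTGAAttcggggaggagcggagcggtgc
CCNB1, chr5:69167000-69167149, plus strand: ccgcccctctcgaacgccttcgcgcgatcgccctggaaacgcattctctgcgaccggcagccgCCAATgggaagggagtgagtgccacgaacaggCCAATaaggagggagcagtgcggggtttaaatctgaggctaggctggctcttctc
CCNB2, chr15:59104996-59105145, plus strand: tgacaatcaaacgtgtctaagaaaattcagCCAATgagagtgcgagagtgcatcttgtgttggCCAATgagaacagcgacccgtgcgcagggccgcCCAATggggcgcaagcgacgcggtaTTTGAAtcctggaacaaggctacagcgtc
HMMR, chr5:163460482-163460631, plus strand: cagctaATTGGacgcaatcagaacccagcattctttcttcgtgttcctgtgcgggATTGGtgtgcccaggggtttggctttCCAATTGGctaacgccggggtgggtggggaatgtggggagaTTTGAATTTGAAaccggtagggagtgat
MKI67, chr10:128126424-128126573, minus strand: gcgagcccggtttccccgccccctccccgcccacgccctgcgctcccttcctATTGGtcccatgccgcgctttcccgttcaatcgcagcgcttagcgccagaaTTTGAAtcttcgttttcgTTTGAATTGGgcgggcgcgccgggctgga

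In these windows the CHR element began 29 bases before the start in PLK1 and in CCNB2, 178 and 65 bases before it in CDC20 (the first lies outside the bases printed), 28 and 22 bases before it in HMMR, and 47 and 29 bases before it in MKI67. CCNB1 had no TTTGAA on either strand of its window, and its CCAAT boxes began 87 and 55 bases before the start. CCNB2 held 3 CCAAT boxes in the bases printed, at 120, 87 and 54 bases before the start. Over the 36 genes with a window, 28 had a CHR element in any window, 30 had a CCAAT box, 24 had both and 2 had neither.

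All 42 genes were well expressed. Per kilobase of transcript, AURKB had the highest level, 141 CPM per kb on average over the 12 libraries, and CDC25C the lowest, 6.81 CPM per kb. The SD of log2 CPM over the 12 libraries had a median of 0.229 in the mitosis genes and 0.263 in all tested genes. Against genes of like abundance (mean log2 CPM of 5 or more) the medians were 0.228 for 41 mitosis genes and 0.2 for 5706 genes. CCNA2, the cyclin of S phase and G2, varied least (SD 0.061) and ASPM, a spindle pole protein, varied most (SD 0.479). CCNA2 had 223, 207 and 200.4 CPM at 4, 8 and 12 h in combination cells and 222, 224 and 221 in ibrutinib cells. For CCNA2, the values were 214, 235 and 215 in SPX5551 cells and 208, 222 and 217 in DMSO cells. Its highest and lowest library differed little, and it passed the test in no comparison. ECT2, KIF18A, NUF2, PRC1 and TTK were the other genes that passed in none.

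**Figure D1:**
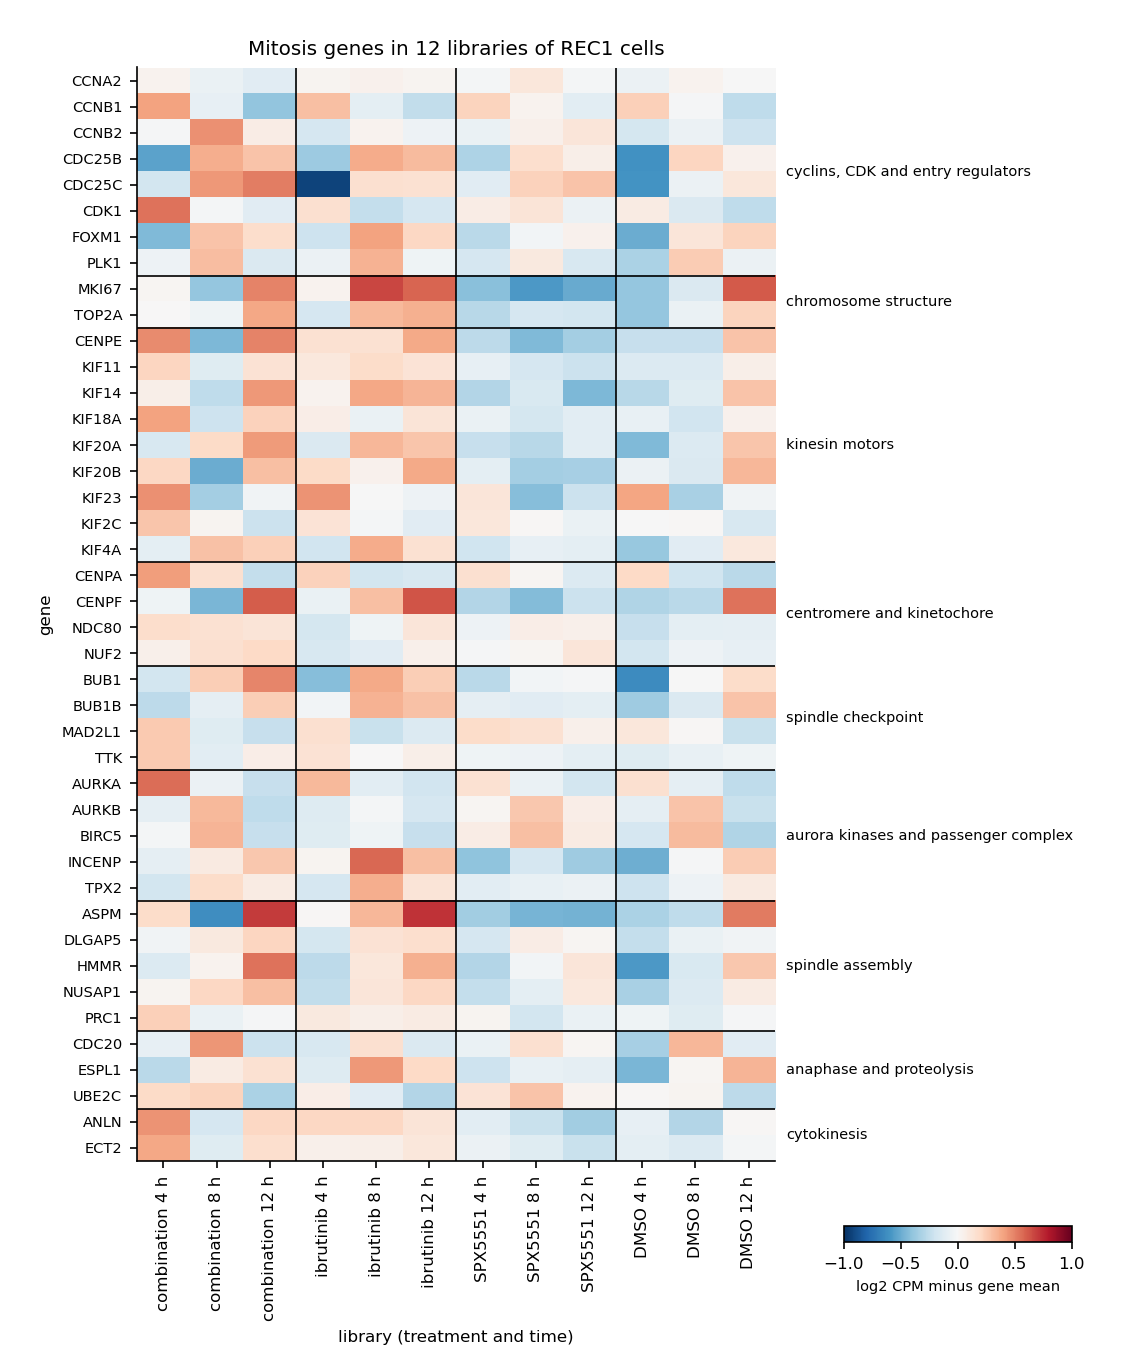
Log2 CPM of the 42 mitosis genes in each of the 12 libraries, minus the mean of the gene over the 12 libraries; rows are grouped by role and columns by treatment and time. CCNA2 is nearly even across the row, while MKI67, CENPF and ASPM are high at 12 h in combination, ibrutinib and DMSO cells and low in SPX5551 cells at 12 h.

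The mean log2 CPM of the 42 genes was 7.11, 7.04 and 7.16 at 4, 8 and 12 h in combination cells, 6.99, 7.17 and 7.15 in ibrutinib cells, 6.92, 6.96 and 6.93 in SPX5551 cells, and 6.82, 6.97 and 7.08 in DMSO cells. DMSO cells at 4 h had the lowest mean and ibrutinib cells at 8 h the highest. Over the 3 times the mean was 7.1 ± 0.06 with the combination, 7.1 ± 0.1 with ibrutinib, 6.94 ± 0.02 with SPX5551 and 6.96 ± 0.13 with DMSO (SD, n = 3 each). With ibrutinib at 8 h and SPX5551 at 12 h left out it was 7.07 ± 0.11 with ibrutinib and 6.94 ± 0.03 with SPX5551 (SD, n = 2 each). Over the 4 treatments the libraries of 4 h averaged 6.96 ± 0.12, those of 8 h 7.04 ± 0.1 and those of 12 h 7.08 ± 0.11 (SD, n = 4 each), and without the 2 libraries 6.99 ± 0.05 at 8 h and 7.13 ± 0.05 at 12 h (SD, n = 3 each).

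The 21 genes with longer transcripts and the 21 with shorter ones (split at a median of 3586 bases) were also averaged apart. The longer genes averaged 7.27, 7.07 and 7.42 at 4, 8 and 12 h in combination cells, 7.22, 7.44 and 7.43 in ibrutinib cells, 7.03, 7.01 and 6.98 in SPX5551 cells, and 6.97, 7.09 and 7.36 in DMSO cells. The shorter genes stayed within 6.67 and 7.02 in all 12 libraries, with DMSO lowest and the combination highest at each time. Both libraries that stood apart did so in the mean of the longer genes. At 8 h ibrutinib was at 7.44 while the other 3 were at 7.01 to 7.09. At 12 h SPX5551 was at 6.98 while the other 3 were at 7.36 to 7.43. Single shorter genes (AURKB, BIRC5 and UBE2C) also lay apart in these libraries, with values given further on.

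**Figure D2:**
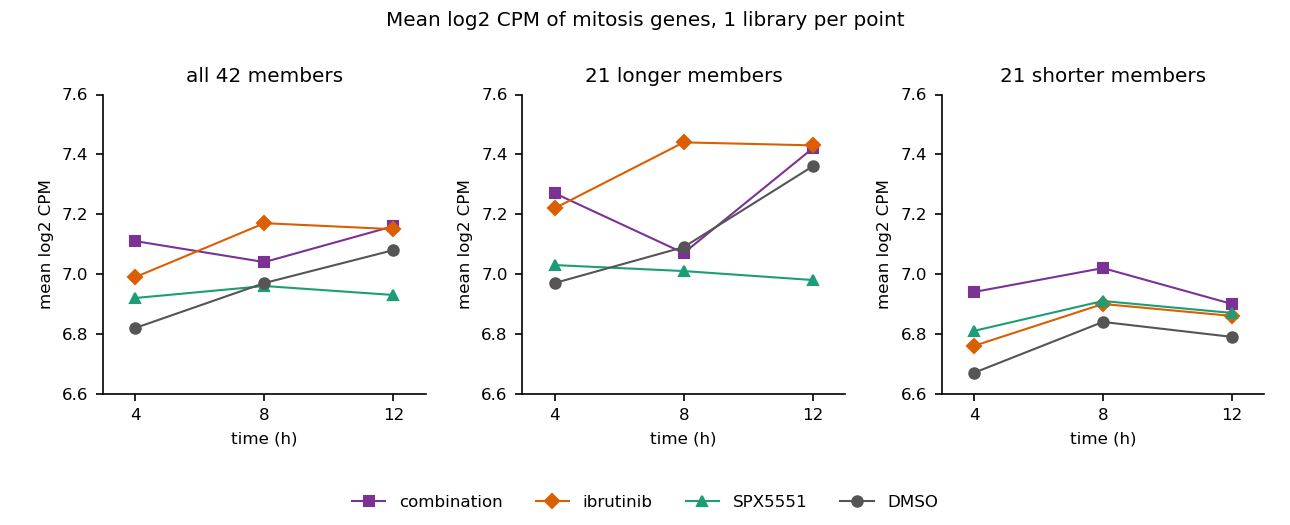
Mean log2 CPM by time, in hours, for all 42 mitosis genes, the 21 longer and the 21 shorter ones; each point is 1 library, lines join a treatment, and the axis runs over 6.6 to 7.6. In the longer genes ibrutinib at 8 h (7.44) and SPX5551 at 12 h (6.98) lie away from the other treatments of their time; in the shorter genes DMSO is the lowest curve at every time.

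At 8 h and at 12 h against 4 h, more mitosis genes passed the test than in any comparison of treatments. In a model with treatment and time as additive terms (edgeR's quasi-likelihood test, adjusted p under 0.05 over 14412 genes), 17 genes were higher and 6 lower at 8 h than at 4 h, where 13.1% of all tested genes were higher and 13.4% lower. At 12 h against 4 h, 17 were higher and 8 lower, against 18.4% and 17.5% of all tested genes. At 12 h against 8 h, 5 were higher and 5 lower, against 4.41% and 4.66%. The median log2 fold change of the mitosis genes was 0.09, 0.12 and 0.04 in these 3 comparisons, while that of all tested genes was 0.005, 0.001 and 0.013. The comparisons share libraries, and so are given side by side. The error printed after each fold change is its standard error. Treatment time and anything else that changed over the hours in culture cannot be told apart, since no library from before treatment was analysed here.

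Most of the genes that passed followed one of 3 patterns. A set of 12 was higher at both later times than at 4 h (BUB1, CDC25B, CDC25C, DLGAP5, ESPL1, FOXM1, HMMR, INCENP, KIF20A, KIF4A, NUSAP1 and TPX2). A set of 6 was lower at both (AURKA, CCNB1, CDK1, CENPA, KIF23 and MAD2L1). A set of 4 was higher at 8 h than at 4 h and lower at 12 h than at 8 h (AURKB, BIRC5, CDC20 and PLK1). ASPM, BUB1B, CENPF, MKI67 and TOP2A passed upward at 12 h and not at 8 h, and KIF2C and UBE2C passed downward at 12 h and not at 8 h. In all, 32 of the 42 passed in at least 1 time comparison. No share of all tested genes is given here for this count or for the 3 patterns. They therefore describe these genes and do not set them apart from others.

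With ibrutinib at 8 h and SPX5551 at 12 h left out, 14 genes were higher and 11 lower at 8 h than at 4 h, against 15.1% and 17% of all tested genes. Of the 23 calls 19 were kept, and KIF20A, MAD2L1, NUSAP1 and TPX2 were lost. Then 20 were higher and 8 lower at 12 h than at 4 h, with all 25 calls kept, against 21.8% and 22.2% of all tested genes. The comparison of 12 h with 8 h gained most: 14 genes were higher and 6 lower without them, and all 10 calls were kept, where 17.7% and 15.8% of all tested genes passed. Leaving out 1 library, or all 4 of 12 h, gave 12 to 28 calls at 8 h against 4 h. The 23 calls fell to 12 without the combination library at 4 h, 15 without that at 8 h, 14 without ibrutinib at 4 h, 12 without DMSO at 4 h and 15 without DMSO at 8 h. For 12 h against 4 h the range was 18 to 25. For 12 h against 8 h the 10 calls fell to 0 without the combination library at 8 h or at 12 h, 0 without DMSO at 8 h or at 12 h, 3 without ibrutinib at 12 h, 5 without SPX5551 at 8 h, and 0 when all 4 libraries of 4 h were left out.

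**Figure D3:**
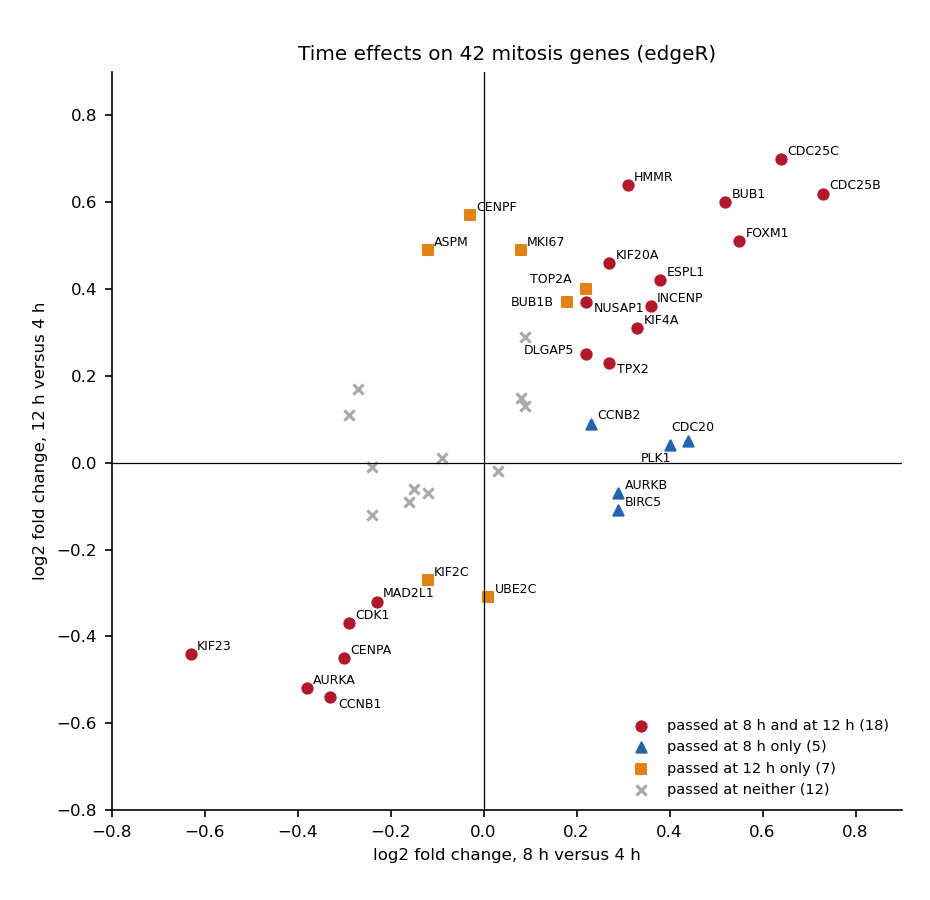
Log2 fold change at 8 h against 4 h (x axis) and at 12 h against 4 h (y axis) for the 42 mitosis genes, from edgeR with all 12 libraries; the shape and colour of a point give the comparisons in which the gene passed. Genes at the upper right (CDC25B, CDC25C, BUB1, FOXM1, HMMR) were higher at both times, those at the lower left (CCNB1, AURKA, KIF23, CENPA) were lower at both, and PLK1 and CDC20 were higher at 8 h and near 0 at 12 h.

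Among the 8 cyclins, kinases and entry regulators, CDC25B, CDC25C and FOXM1 were higher at both later times, CDK1 and CCNB1 were lower at both, CCNB2 and PLK1 were higher at 8 h, and CCNA2 passed in neither comparison. At 8 h against 4 h, 5 were higher and 2 lower, and at 12 h against 4 h, 3 were higher and 2 lower. CDC25B, the phosphatase that starts CDK1 activation, had 121, 226 and 214 CPM at 4, 8 and 12 h in combination cells, 137, 228 and 218 in ibrutinib cells, 142, 197 and 183 in SPX5551 cells, and 115, 204 and 180.5 in DMSO cells. All 8 later libraries lay above all 4 of 4 h, and the log2 fold change was 0.73 ± 0.08 (edgeR adjusted p = 4.64e-05) at 8 h and 0.62 ± 0.08 (edgeR adjusted p = 6.5e-05) at 12 h. CDC25C, a second phosphatase of CDK1, had 12.4, 19 and 20.0 CPM at 4, 8 and 12 h in combination cells and 7.4, 15.7 and 15.6 in ibrutinib cells. For CDC25C, the values were 13, 16.5 and 17.1 in SPX5551 cells and 9.3, 13.5 and 15.2 in DMSO cells. It was the least abundant of the 42, its 4 h libraries lay below all later ones, and it changed by 0.64 ± 0.11 (edgeR adjusted p = 0.000925) at 8 h and 0.7 ± 0.11 (edgeR adjusted p = 0.00029) at 12 h. FOXM1, which drives transcription of mitosis genes, had 63.6, 105 and 97.1 CPM at 4, 8 and 12 h in combination cells, 74.5, 114 and 99.3 in ibrutinib cells, 71.4, 84.5 and 88.9 in SPX5551 cells, and 61, 93.5 and 100.5 in DMSO cells. Its 4 h libraries were again the 4 lowest, with changes of 0.55 ± 0.09 (edgeR adjusted p = 0.000437) at 8 h and 0.51 ± 0.09 (edgeR adjusted p = 0.000423) at 12 h.

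CCNB1, which encodes cyclin B1, ran the other way. It had 343, 244 and 197 CPM at 4, 8 and 12 h in combination cells and 319, 242 and 218 in ibrutinib cells. For CCNB1, the values were 301.5, 265 and 240.0 in SPX5551 cells and 305, 256.5 and 217 in DMSO cells. The libraries of the 3 times did not overlap: all 4 of 4 h were highest and all 4 of 12 h lowest. The log2 fold change was -0.33 ± 0.08 (edgeR adjusted p = 0.00603) at 8 h and -0.54 ± 0.08 (edgeR adjusted p = 0.000152) at 12 h, and without the 2 libraries -0.59 (edgeR adjusted p = 1.14e-06) at 12 h. CDK1, its kinase, fell by 0.29 at 8 h and by 0.37 at 12 h on the log2 scale (edgeR adjusted p = 0.0306 and 0.00582), and the 4 h library of combination cells was the highest of all, at 395 CPM. CCNB2, which encodes cyclin B2, had 66.9, 92.4 and 71 CPM at 4, 8 and 12 h in combination cells, 59.9, 69 and 64.9 in ibrutinib cells, 64.5, 69.8 and 73.4 in SPX5551 cells, and 59.5, 64.8 and 58.3 in DMSO cells. It was higher at 8 h than at 4 h, by 0.23 ± 0.08 (edgeR adjusted p = 0.0487), but the groups overlapped, the combination library at 8 h was far above the others, and at 12 h against 4 h it did not pass.

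PLK1, a kinase needed for spindle assembly and mitotic exit, peaked at 8 h. It had 157, 201.5 and 147 CPM at 4, 8 and 12 h in combination cells and 157, 207 and 158 in ibrutinib cells. For PLK1, the values were 145.5, 175 and 146 in SPX5551 cells and 131, 194 and 156 in DMSO cells. All 4 libraries of 8 h lay above all others. The log2 fold change was 0.4 ± 0.08 (edgeR adjusted p = 0.00145) at 8 h against 4 h and -0.35 ± 0.08 (edgeR adjusted p = 0.0188) at 12 h against 8 h, while the change at 12 h against 4 h was 0.04.

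The anaphase group shares this peak in part. CDC20, the activator of the anaphase-promoting complex, had 228, 329.6 and 209 CPM at 4, 8 and 12 h in combination cells, 217, 271 and 219.5 in ibrutinib cells, 231, 271 and 245 in SPX5551 cells, and 192.5, 304 and 224 in DMSO cells. All 4 libraries of 8 h were above the rest, with a log2 fold change of 0.44 ± 0.09 (edgeR adjusted p = 0.00211) at 8 h against 4 h and -0.39 ± 0.09 (edgeR adjusted p = 0.0214) at 12 h against 8 h. UBE2C, the ubiquitin-conjugating enzyme of the same complex, had 91.8, 93.9 and 64.8 CPM at 4, 8 and 12 h in combination cells and 84.4, 74.5 and 65.9 in ibrutinib cells. For UBE2C, the values were 88.4, 98.3 and 82.6 in SPX5551 cells and 81.2, 82.2 and 67.1 in DMSO cells. Its log2 fold change at 8 h against 4 h was 0.01 ± 0.08, and it fell by 0.31 ± 0.08 on the log2 scale (edgeR adjusted p = 0.0335) at 12 h against 8 h, with the SPX5551 library at 12 h overlapping the earlier ones. ESPL1, which encodes separase, the protease that opens cohesin rings, had 155, 199 and 208 CPM at 4, 8 and 12 h in combination cells, 171, 253 and 215 in ibrutinib cells, 162.5, 178 and 176 in SPX5551 cells, and 136.5, 190.2 and 237 in DMSO cells. Its 4 h libraries were the 4 lowest, and it rose by 0.38 ± 0.1 (edgeR adjusted p = 0.00977) at 8 h and 0.42 ± 0.1 (edgeR adjusted p = 0.00416) at 12 h.

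The 5 genes of the aurora kinases and the chromosomal passenger complex split. AURKA, the kinase of the spindle poles, had 218, 142 and 126 CPM at 4, 8 and 12 h in combination cells and 185, 137 and 129.8 in ibrutinib cells. For AURKA, the values were 164, 141 and 130.0 in SPX5551 cells and 166, 139 and 124 in DMSO cells. As for CCNB1, the 3 times did not overlap and the level fell with time, by 0.38 ± 0.08 on the log2 scale (edgeR adjusted p = 0.00305) at 8 h and 0.52 ± 0.08 on the log2 scale (edgeR adjusted p = 0.00025) at 12 h. TPX2, which activates and targets that kinase, rose by 0.27 at 8 h and 0.23 at 12 h on the log2 scale (edgeR adjusted p = 0.0257 and 0.048). AURKB, the kinase of the passenger complex, had 164, 219 and 146 CPM at 4, 8 and 12 h in combination cells, 160.0, 173 and 155.5 in ibrutinib cells, 177, 211 and 183 in SPX5551 cells, and 165, 213.5 and 149.9 in DMSO cells. In all 4 treatments 8 h was the highest time, though the groups overlapped through the ibrutinib library of 8 h, with a change of 0.29 ± 0.08 (edgeR adjusted p = 0.015) at 8 h against 4 h and -0.36 ± 0.08 (edgeR adjusted p = 0.0212) at 12 h against 8 h. BIRC5, which encodes survivin of the same complex, had 249.5, 319.6 and 216 CPM at 4, 8 and 12 h in combination cells and 232, 245 and 215 in ibrutinib cells. For BIRC5, the values were 266, 310.1 and 267 in SPX5551 cells and 225, 314 and 204 in DMSO cells. Again 8 h was the highest time in all 4 treatments and the ibrutinib library of 8 h overlapped the other times, with 0.29 ± 0.08 (edgeR adjusted p = 0.0195) at 8 h against 4 h and -0.4 ± 0.08 (edgeR adjusted p = 0.0188) at 12 h against 8 h, and without the 2 libraries -0.53 (edgeR adjusted p = 3.71e-05).

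INCENP, the scaffold of the complex, did not share the fall at 12 h. It had 93.4, 106 and 120.0 CPM at 4, 8 and 12 h in combination cells, 101, 148 and 123 in ibrutinib cells, 75.4, 88.6 and 77.8 in SPX5551 cells, and 70.7, 98.4 and 118 in DMSO cells. It rose by 0.36 ± 0.1 (edgeR adjusted p = 0.0162) at 8 h and 0.36 ± 0.1 (edgeR adjusted p = 0.0122) at 12 h. The ibrutinib library at 8 h was the highest of the 12, and the SPX5551 library at 12 h lay within the range of those of 4 h. Without these 2 the changes were 0.25 (edgeR adjusted p = 0.0186) at 8 h and 0.45 (edgeR adjusted p = 7.51e-05) at 12 h.

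**Figure D4:**
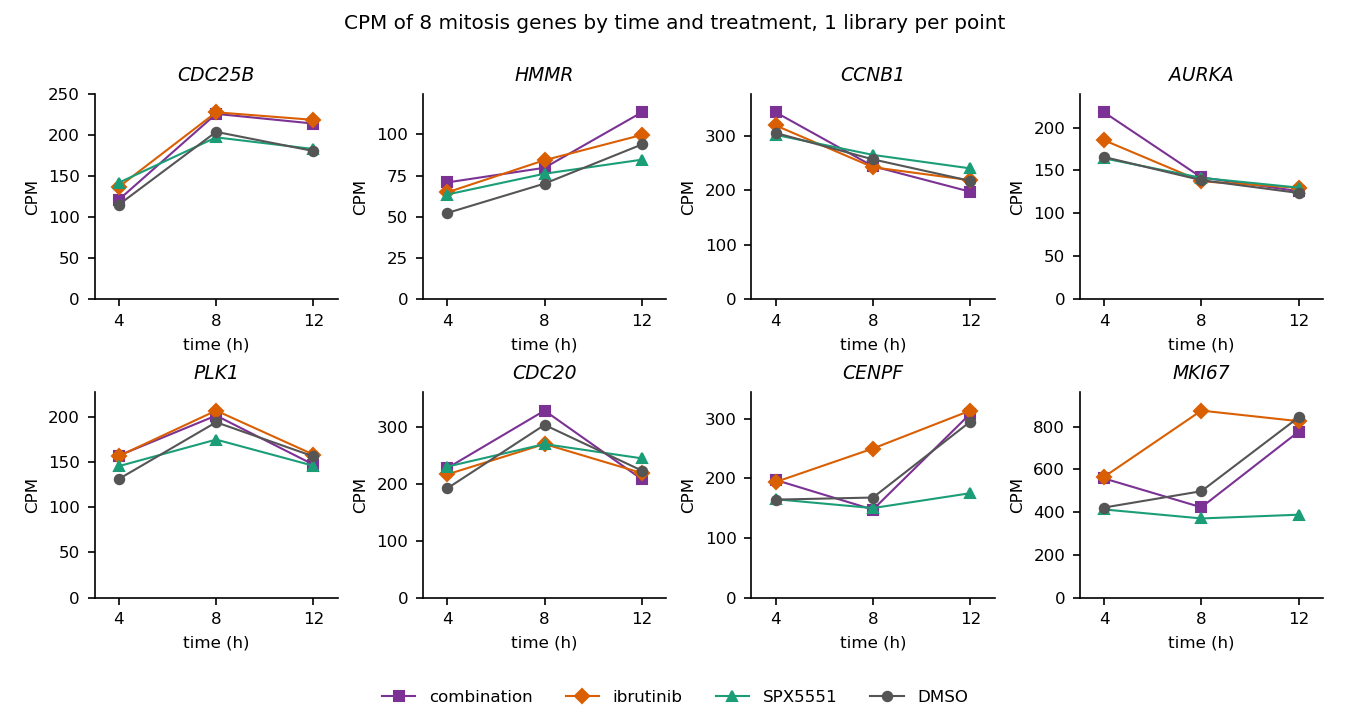
CPM of 8 mitosis genes by time, in hours; each point is 1 library, and colour and shape give the treatment. CDC25B and HMMR are higher after 4 h and CCNB1 and AURKA fall in all 4 treatments, PLK1 and CDC20 are highest at 8 h in all 4, and CENPF and MKI67 are high at 12 h except in SPX5551 cells, where they had 175 and 388 CPM.

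Checkpoint genes went in both directions. BUB1, a checkpoint kinase at kinetochores, had 126, 169.7 and 200.5 CPM at 4, 8 and 12 h in combination cells and 107, 186 and 169.5 in ibrutinib cells. For BUB1, the values were 119, 141 and 142 in SPX5551 cells and 92.7, 143 and 162 in DMSO cells. Its 4 h libraries were the 4 lowest, and it rose by 0.52 ± 0.1 (edgeR adjusted p = 0.00108) at 8 h and 0.6 ± 0.1 (edgeR adjusted p = 0.000262) at 12 h. BUB1B, which encodes the checkpoint protein BubR1, had 61.7, 69.5 and 87.8 CPM at 4, 8 and 12 h in combination cells, 72.7, 94.4 and 90.9 in ibrutinib cells, 69.5, 68.5 and 69.3 in SPX5551 cells, and 57.9, 67.1 and 90.1 in DMSO cells. It passed at 12 h, by 0.37 ± 0.1 (edgeR adjusted p = 0.00856), and 3 of the 4 treatments were higher, while SPX5551 cells were level. MAD2L1, the checkpoint protein that holds CDC20, fell by 0.23 at 8 h and by 0.32 at 12 h on the log2 scale (edgeR adjusted p = 0.0484 and 0.00664). The kinase gene TTK did not pass in either comparison.

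Most spindle assembly genes were higher at the later times. Of the 5, 3 were higher at 8 h and 4 at 12 h than at 4 h, and none was lower. HMMR, a microtubule-binding protein of the spindle, had 70.8, 79.7 and 113 CPM at 4, 8 and 12 h in combination cells and 64.8, 84.3 and 99.6 in ibrutinib cells. For HMMR, the values were 63.5, 76.1 and 84.6 in SPX5551 cells and 52.3, 70.1 and 93.8 in DMSO cells. The libraries of 12 h were the 4 highest, and the change was 0.64 ± 0.08 (edgeR adjusted p = 5.4e-05) at 12 h against 4 h and 0.33 ± 0.08 (edgeR adjusted p = 0.028) at 12 h against 8 h. NUSAP1, which binds and bundles spindle microtubules, had 238, 270.4 and 288 CPM at 4, 8 and 12 h in combination cells, 198, 254 and 270.5 in ibrutinib cells, 198, 219 and 251 in SPX5551 cells, and 186, 213 and 247 in DMSO cells. Its 12 h libraries lay above those of 4 h, with a change of 0.37 ± 0.07 (edgeR adjusted p = 0.000976). ASPM had 166.5, 95.5 and 238 CPM at 4, 8 and 12 h in combination cells and 148, 185 and 242 in ibrutinib cells. For ASPM, the values were 115, 106 and 106 in SPX5551 cells and 118, 123 and 210.4 in DMSO cells. At 12 h it was high in combination, ibrutinib and DMSO cells and low in SPX5551 cells; the change was 0.49 ± 0.16 (edgeR adjusted p = 0.0271) with all libraries and 0.71 (edgeR adjusted p = 3.37e-06) without the 2. DLGAP5, a factor of kinetochore fibres, rose by 0.22 at 8 h and 0.25 at 12 h on the log2 scale (edgeR adjusted p = 0.0295 and 0.0121), and PRC1, the bundler of the central spindle, did not pass.

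Kinesin motors showed no common direction over time. KIF23, the motor of the central spindle and midbody, had 79.9, 45.9 and 56.5 CPM at 4, 8 and 12 h in combination cells, 79.3, 57.8 and 56 in ibrutinib cells, 63.3, 43.3 and 49.9 in SPX5551 cells, and 76.5, 46.4 and 56.7 in DMSO cells. All 4 libraries of 4 h were above all later ones, and the fall was the largest of the 42 genes at 8 h, with -0.63 ± 0.08 (edgeR adjusted p = 9.83e-05) at 8 h and -0.44 ± 0.08 (edgeR adjusted p = 0.000599) at 12 h. KIF20A, which moves the passenger complex to the midzone, had 57.8, 74 and 86.8 CPM at 4, 8 and 12 h in combination cells and 58.4, 81.2 and 78.3 in ibrutinib cells. For KIF20A, the values were 55.2, 53.4 and 60.1 in SPX5551 cells and 47.5, 58.7 and 78.3 in DMSO cells. Its 12 h libraries lay above its 4 h libraries, with a change of 0.46 ± 0.1 (edgeR adjusted p = 0.00198). KIF4A, a chromosome-bound motor, had 146, 192 and 185 CPM at 4, 8 and 12 h in combination cells, 137, 202 and 174 in ibrutinib cells, 136.5, 147.5 and 146 in SPX5551 cells, and 120.4, 145 and 168 in DMSO cells. It was higher by 0.33 ± 0.09 (edgeR adjusted p = 0.0092) at 8 h and 0.31 ± 0.09 (edgeR adjusted p = 0.00986) at 12 h, with overlap between the groups.

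CENPE, the motor that carries chromosomes to the metaphase plate, had 189, 100.1 and 192 CPM at 4, 8 and 12 h in combination cells and 152, 151.5 and 178 in ibrutinib cells. For CENPE, the values were 114, 100.5 and 107.5 in SPX5551 cells and 116, 116.5 and 166 in DMSO cells. The 8 h combination library was low beside both other times, and the passing comparison was 12 h against 8 h, with 0.44 ± 0.13 (edgeR adjusted p = 0.0468). KIF20B, a motor of cytokinesis, had 154, 94.7 and 165 CPM at 4, 8 and 12 h in combination cells, 152, 137.5 and 173.5 in ibrutinib cells, 125, 105.5 and 106 in SPX5551 cells, and 128, 121 and 168 in DMSO cells. It shared this dip at 8 h in combination cells, and its change at 12 h against 8 h was 0.4 ± 0.11 (edgeR adjusted p = 0.0367). KIF14, a motor of the midbody, had 68.5, 55.1 and 88.7 CPM at 4, 8 and 12 h in combination cells, 67.1, 85.7 and 83.3 in ibrutinib cells, 53.6, 59.1 and 48.1 in SPX5551 cells, and 54.2, 60.4 and 80.1 in DMSO cells, and passed in no time comparison. KIF2C, a microtubule depolymerase, fell by 0.27 at 12 h against 4 h on the log2 scale (edgeR adjusted p = 0.0113), and KIF11 and KIF18A did not pass over time.

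Centromere genes differed by member. CENPF, a kinetochore protein that accumulates in G2, had 197.5, 148 and 309 CPM at 4, 8 and 12 h in combination cells, 194, 250.3 and 314 in ibrutinib cells, 165, 150.3 and 175 in SPX5551 cells, and 164.5, 168 and 295 in DMSO cells. It was high at 12 h in combination, ibrutinib and DMSO cells, and at 8 h in ibrutinib cells. The change was 0.57 ± 0.13 (edgeR adjusted p = 0.00285) at 12 h against 4 h and 0.61 ± 0.13 (edgeR adjusted p = 0.0187) at 12 h against 8 h. Without the 2 libraries, which were singled out with the data known, the second change was 0.92 (edgeR adjusted p = 1.07e-07). CENPA, the histone variant of centromeres, fell by 0.3 at 8 h and by 0.45 at 12 h on the log2 scale (edgeR adjusted p = 0.0134 and 0.000785). NDC80, a microtubule-binding subunit of the outer kinetochore, had 134, 132 and 130.3 CPM at 4, 8 and 12 h in combination cells, 105, 116 and 129 in ibrutinib cells, 115, 124 and 123 in SPX5551 cells, and 101, 111 and 112 in DMSO cells, and like NUF2, its partner, passed in no time comparison.

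Both chromosome genes were higher at 12 h than at 4 h. MKI67, which encodes the proliferation antigen Ki-67, had 558, 423 and 777 CPM at 4, 8 and 12 h in combination cells, 565.5, 876 and 826 in ibrutinib cells, 413, 371 and 388 in SPX5551 cells, and 422, 498 and 844 in DMSO cells. It was lowest in SPX5551 cells at 8 h and highest in ibrutinib cells at 8 h, and the change at 12 h was 0.49 ± 0.16 (edgeR adjusted p = 0.025) with all libraries and 0.66 (edgeR adjusted p = 2.44e-06) without the 2. TOP2A, the topoisomerase that untangles sister chromatids, had 529, 514 and 690.1 CPM at 4, 8 and 12 h in combination cells and 470.1, 662 and 675 in ibrutinib cells. For TOP2A, the values were 437, 472 and 467 in SPX5551 cells and 404, 505 and 617 in DMSO cells. Its change at 12 h was 0.4 ± 0.1 (edgeR adjusted p = 0.00449), the times overlapped, and DMSO cells at 4 h had the lowest value. The cytokinesis gene ANLN, which encodes the actin-binding protein anillin, had 156, 101.5 and 131 CPM at 4, 8 and 12 h in combination cells, 132, 131 and 124 in ibrutinib cells, 106, 97.3 and 89.6 in SPX5551 cells, and 108, 93 and 115 in DMSO cells. The combination library at 4 h was its highest, and neither it nor ECT2, an activator of RhoA at the cleavage furrow, passed over time.

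The treatment with the most mitosis genes past the test was ibrutinib, read as the 6 libraries that contained it (combination and ibrutinib) against the 6 that did not (SPX5551 and DMSO). As a contrast of the same fit, 14 of the 42 genes were higher with ibrutinib and 0 lower, where 6.49% of all tested genes were higher (edgeR adjusted p under 0.05). These were INCENP, ANLN, CENPE, KIF20A, MKI67, KIF4A, TOP2A, NUSAP1, ASPM, KIF11, HMMR, BUB1, KIF14 and CENPF, which include 5 of 9 kinesins, 3 of 5 spindle assembly genes, both chromosome genes and none of the 8 cyclins, kinases and entry regulators. In all, 36 of the 42 log2 fold changes were positive, where 53.5% of all tested genes were positive. The median of the 42 was 0.15, against 0.02 over all tested genes. The largest were 0.47 ± 0.13 for MKI67, 0.45 ± 0.13 for ASPM and 0.41 ± 0.11 for CENPE (log2 fold change ± SE, edgeR adjusted p = 0.0285, 0.0393 and 0.0232), and the smallest p belonged to INCENP, with 0.39 ± 0.08 (edgeR adjusted p = 0.0111). The direction depends on following the column headers. The sample descriptions exchange the treatment names among the same columns, which gives this contrast with its sign turned. With them, 14 genes were thus lower and 0 higher, where 6.49% of all tested genes were lower, an outcome fixed by the exchange.

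The count of 14 fell when most of the single libraries were left out. The median log2 fold change of the 42 ranged from 0.11 to 0.17 with 1 library or all 4 of a time left out. Shares of all tested genes for these left-out libraries and times are not given here. Without ibrutinib at 8 h and SPX5551 at 12 h, 1 of the 14 passed, INCENP, with 0.24 (edgeR adjusted p = 0.0424), where 2.02% of all tested genes were higher. MKI67 then had 0.19 (edgeR adjusted p = 0.173), ASPM 0.17 (edgeR adjusted p = 0.276) and ANLN 0.22 (edgeR adjusted p = 0.0745). The median of the 42 was then 0.1. Without 1 library the count was 1 without the combination at 4 h, 1 without it at 12 h, 1 without ibrutinib at 8 h, 5 without ibrutinib at 12 h, 3 without SPX5551 at 8 h, 2 without SPX5551 at 12 h, and 0 without DMSO at 4 h or at 8 h. Leaving out all 4 libraries of a time gave 0 without 4 h, 1 without 8 h and 7 without 12 h. The remaining 4 single libraries left 11 to 15 calls.

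Within a time the 4 libraries can be ordered without the model. At 4 h, where no library stood apart, both ibrutinib-containing libraries lay above both others for 25 of the 42 genes, where 24.8% of all tested genes did so, and below both for 1 gene, against 19.2%. At 8 h the order held for 18 genes upward (19.5% of all genes) and 2 downward (17.7%), and at 12 h for 18 upward (18.5%) and 2 downward (18.4%). TOP2A, KIF11, KIF4A, INCENP, HMMR, ECT2 and ANLN lay above at all 3 times. The share of all tested genes that did so at all 3 times is not given here. Some margins were small: at 8 h ECT2 had 70.1 CPM with the combination and 69.9 with SPX5551. KIF11 at 8 h had 265.4 CPM with the combination and 262.5 with DMSO. With 2 libraries against 2, this order is a description and has no test.

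The calls with ibrutinib leaned to long transcripts. Of the 14 genes, 10 were among the 21 longer ones. Role and length were not separated here. The called MKI67 and TOP2A have transcripts of 12678 and 5758 bases, and the uncalled CDK1 and CCNB1 of 1948 and 2169. PLK1, with 4135 bases and no call, goes the other way. The median log2 fold change was 0.22 in the longer and 0.08 in the shorter genes. Spearman's rho between length and fold change was 0.75 across the 42 genes and 0.37 across 14316 tested genes, which all share the same 12 libraries. With the trend of log2 CPM on transcript length and GC content removed library by library, the medians were 0.16 and 0.14, rho was 0.33 across the 42 genes, and 19 of the 42 genes passed upward and 0 downward, 13 of them among the 14, where 5.66% of all tested genes passed upward. What part of the ibrutinib calls comes with the length trend was not tested beyond this removal.

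**Figure D5:**
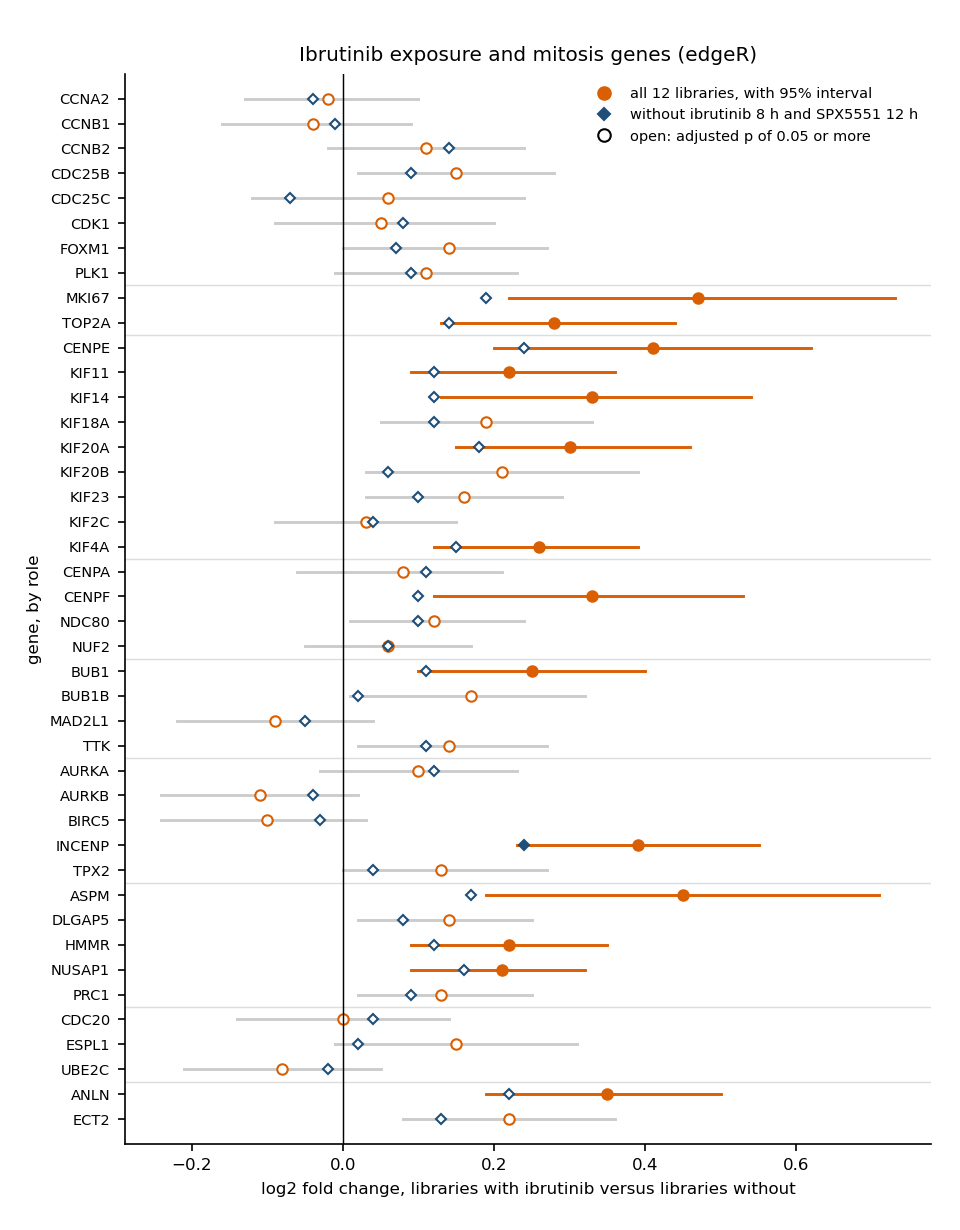
Log2 fold change of each mitosis gene between the 6 libraries with ibrutinib and the 6 without (x axis), by role; circles with 95% intervals are from all 12 libraries, diamonds from 10 libraries, and filled symbols have an edgeR adjusted p under 0.05. The circles lie right of 0 for 36 of 42 genes and 14 are filled; the diamonds lie nearer to 0 for most of these, and INCENP alone is filled.

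The combination set against DMSO at the same times had 4 mitosis genes higher and 0 lower, against 4.16% of all tested genes higher. They were NUSAP1, with 0.31 ± 0.08 (edgeR adjusted p = 0.0277), NDC80, with 0.29 ± 0.08 (edgeR adjusted p = 0.0388), CCNB2, with 0.33 ± 0.09 (edgeR adjusted p = 0.0419), and CDC25C, with 0.43 ± 0.13 (edgeR adjusted p = 0.0449). In the values given above, the combination library was above the DMSO library of its time in 3 of 3 times for each of these, and for CCNB2 and NDC80 all 3 combination libraries were above all 3 of DMSO. Over the 42 genes, 39 log2 fold changes were positive and their median was 0.15, against 0.02 for all tested genes, of which 52.6% were positive. All 4 passed without the 2 libraries that stood apart, where 9 genes passed upward, against 6.95% of all tested genes. With the columns that the descriptions name, 0 genes were higher and 2 lower. That pairing sets the columns headed SPX5551 against those headed combination, and the 2 are CENPE and ANLN, not any of these 4. The median of the 42 was 0.07 without the combination at 4 h, 0.07 without DMSO at 4 h and 0.05 without all 4 libraries of 4 h. The 4 calls fell to 0 without any 1 DMSO library, without the combination at 4 h or at 12 h, without ibrutinib at 12 h and without any 1 time, to 1 without SPX5551 at 8 h, and to 2 without the combination at 8 h or without ibrutinib at 4 h or 8 h.

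Against SPX5551 alone, 2 genes were higher in combination cells and 0 lower, where 3.27% of all tested genes were higher. CENPE differed by 0.54 ± 0.15 (edgeR adjusted p = 0.0405) and was higher in 2 of 3 times, and ANLN differed by 0.39 ± 0.11 (edgeR adjusted p = 0.0445) and was higher in 3 of 3. Without the 2 libraries neither passed, with 0.35 (edgeR adjusted p = 0.0812) for CENPE and 0.27 (edgeR adjusted p = 0.0962) for ANLN. With the columns that the descriptions name, 0 genes were higher and 11 lower, where 8.13% of all tested genes were lower. That pairing sets the columns headed SPX5551 against those headed ibrutinib, so it is another comparison of the same libraries. The count was 0 without the combination at 4 h or 12 h, ibrutinib at 4 h or 12 h, SPX5551 at 8 h or 12 h, DMSO at 4 h or 8 h, or all of 4 h or of 12 h; it was 8 without the combination at 8 h, 5 without SPX5551 at 4 h, 4 without ibrutinib at 8 h, 3 without DMSO at 12 h and 3 without all of 8 h.

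Ibrutinib alone against DMSO had 0 of 42 genes past the threshold, where 0.104% of all tested genes passed in either direction, and 10 of the 42 (23.8%) had an unadjusted p under 0.05, against 11% of all tested genes. DESeq2 also called 0. With the columns that the descriptions name, 0 genes were higher and 4 lower. That pairing sets the columns headed DMSO against those headed combination, so it repeats the calls of combination against DMSO with the sign turned. The smallest p was that of INCENP, with 0.38 ± 0.12 (edgeR adjusted p = 0.452), higher in 3 of 3 times.

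SPX5551 alone against DMSO had no mitosis gene past the threshold either, and 0.0% of all tested genes passed in edgeR; 4 of the 42 (9.52%) had an unadjusted p under 0.05, against 8.33% of all tested genes, and DESeq2 called 0 of the 42. The median log2 fold change was 0.01, and 22 of the 42 were positive, where 48.9% of all tested genes were positive. MKI67 had the smallest p, with -0.52 ± 0.18 (edgeR adjusted p = 0.598), and was lower in 3 of 3 times. Read as exposure, the 6 libraries with SPX5551 (combination and SPX5551) had 1 gene higher and 1 lower than the 6 without, against 2.07% and 4.68% of all tested genes. CDC25C was higher, by 0.37 ± 0.09 (edgeR adjusted p = 0.0294), in 6 of 6 pairs, and without the 2 libraries the value was 0.48 (edgeR adjusted p = 0.0068). MKI67 was lower, with -0.46 ± 0.13 (edgeR adjusted p = 0.0457), in 6 of 6 pairs, and without the 2 libraries it no longer passed, with -0.2 (edgeR adjusted p = 0.179). MKI67 has the longest transcript of the 42, and rho between length and this fold change was -0.83 across the 42 genes and -0.39 across 14316 tested genes. The 2 calls became 0 without the combination at 4 h or 8 h, SPX5551 at 8 h, DMSO at 8 h or 12 h, or all of 4 h or 8 h, 1 without ibrutinib at 4 h or 8 h, SPX5551 at 12 h or DMSO at 4 h, and 3 without the combination at 12 h or SPX5551 at 4 h.

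Adding SPX5551 to ibrutinib gave no call among the mitosis genes. In combination cells against ibrutinib cells, 0 of 42 passed, where 5.49% of all tested genes passed in either direction, and 7 (16.7%) had an unadjusted p under 0.05, against 23.5% of all tested genes. The lowest p was that of CDC25C, with 0.43 ± 0.13 (edgeR adjusted p = 0.0582), higher in 3 of 3 times, with a 95% interval of 0.18 to 0.68. DESeq2 called 1 of the 42. The interaction, which asks whether both agents together differ from the sum of their effects on the log2 scale, was past the threshold for 0 of 42 genes and 0.0% of all tested genes, and 0 of 42 had an unadjusted p under 0.05, against 5.86% of all tested genes; DESeq2 also called 0. The smallest p was that of BUB1B, with -0.22 ± 0.16 (edgeR adjusted p = 0.933) and a 95% interval of -0.53 to 0.1. Log2 fold changes of the interaction ran from -0.22 to 0.26 over the 42 genes.

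Other genes of the cell cycle were read from lists drawn up with earlier results known. Of all tested genes, 6.49% were higher with ibrutinib exposure and 4.16% were higher in combination cells than in DMSO cells. At 12 h against 4 h, 18.4% were higher and 17.5% lower. Of 64 further mitosis genes, 10 were higher and 0 lower with ibrutinib exposure, 6 were higher in combination cells than in DMSO cells, and at 12 h against 4 h 14 were higher and 16 lower, with a median of -0.03. Of 40 DNA replication genes, 5 were higher and 0 lower with ibrutinib exposure, with a median of 0.0, and 4 were higher and 10 lower at 12 h than at 4 h, with a median of -0.07. Without the 2 libraries that stood apart, ibrutinib exposure had 3 higher and 0 lower of the 64 and 4 higher and 0 lower of the 40, combination against DMSO had 13 higher and 2 lower of the 64, and 12 h against 4 h had 15 higher and 21 lower of the 64 and 5 higher and 12 lower of the 40. Of the 14637 genes tested then, ibrutinib exposure had 296 higher and 515 lower, and combination against DMSO 1018 higher and 1531 lower. The comparison of 12 h with 4 h had 3193 higher and 3247 lower. With all 12 libraries the corresponding medians of the 42 mitosis genes were 0.15 with ibrutinib exposure and 0.12 at 12 h. The median of the 64 further mitosis genes with ibrutinib exposure was 0.102, and 47 of the 64 changes were positive.

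Among 22 regulators of the mitotic programme, MYBL2, which encodes B-MYB, was higher at 8 h than at 4 h by 0.37 ± 0.08 and at 12 h by 0.25 ± 0.08 (log2 fold change ± SE, edgeR adjusted p = 0.00461 and 0.0275). CDKN2C, an inhibitor of the cyclin D kinases, rose by 0.75 ± 0.08 at 8 h and 0.66 ± 0.08 at 12 h (edgeR adjusted p = 3.31e-05 and 3.96e-05). E2F7, a repressor of the E2F family, was higher with ibrutinib exposure, by 0.54 ± 0.12, and in combination cells than in DMSO cells, by 0.62 ± 0.16 (edgeR adjusted p = 0.0116 and 0.0265). In all, 2 of the 22 were higher and 0 lower with ibrutinib exposure, where 6.49% of all tested genes were higher. At 12 h against 4 h, 7 of the 22 were higher and 4 lower, against 18.4% and 17.5% of all tested genes. The 4 lower ones were LIN9 at -0.31, E2F1 at -0.3, E2F4 at -0.27 and TFDP1 at -0.29 (edgeR adjusted p = 0.0232, 0.0128, 0.0134 and 0.00455). LIN9 was also lower at 8 h than at 4 h, at -0.42 (edgeR adjusted p = 0.00512). The regulators thus showed no common direction over time. Without the 2 libraries E2F7 did not pass with ibrutinib exposure, at 0.33 ± 0.1 (edgeR adjusted p = 0.0592), and passed in combination cells against DMSO cells, at 0.6 ± 0.12 (edgeR adjusted p = 0.00124). The counts of the 22 were then 0 higher and 0 lower with ibrutinib exposure and 8 higher and 5 lower at 12 h against 4 h, and MYBL2 and CDKN2C passed in the same time comparisons.

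Counting could mix some genes with others. Another annotated gene overlaps 24 of the 42, on the opposite strand for 19, and the sources used here do not say whether reads were counted by strand, so values of these 24 are uncertain to that extent. Of the 42, 7 have named copies or pseudogenes with at most 20 counts in a library, the highest being for copies of UBE2C.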

How the data were processed

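Poly(A) RNA of REC1 cells was sequenced as 12 libraries made with a directional kit, per the labels' protocols. BWA and hg38 are named in the submitters' processing notes. The sources used here do not name the counting tool, its annotation or its strand setting. The authors deposited raw counts per Ensembl gene (60483 genes) and, for 14767 genes, log2 CPM with a lowest value of -3.5, made by a method not given in the sources used here. Identifiers were matched to symbols through GENCODE release 29 (93.8% of IDs), and all 42 genes were found.

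Tests used the deposited counts in edgeR 4.0.16 (R 4.3.3): TMM normalization, which scales libraries by the bulk of genes, filterByExpr by treatment (14412 genes, 99.9% of counts), and 1 quasi-likelihood fit with treatment and time as additive terms (6 residual degrees of freedom, common biological coefficient of variation 0.101), with Benjamini-Hochberg adjustment over all 14412 genes and a threshold of 0.05. Exposure and interaction were contrasts of this fit. CPM are TMM-scaled, and log2 CPM used a prior count of 2. The scripts were tested on simulated counts. The members and gene lists were chosen with earlier results of these data known. Values in every library were given for up to 10 called genes with the largest change in each comparison, the gene with the smallest p in each, the genes of highest and lowest level and spread, and 11 well-known members, 30 genes in all; the order of the 4 libraries within a time was added after seeing the data. Alternatives were DESeq2 1.42.0, other scalings, no filter, no covariate, removal of length and GC trends (14316 genes), the 2 groups alone, limma 3.58.1 on the deposited log2 CPM, libraries or times left out, and the columns that the sample descriptions name. No pair of libraries agreed within sampling noise: the closest pair, ibrutinib and DMSO at 12 h, gave a chi-square per degree of freedom of 5.03. Promoter sequences are from RefSeq (GRCh38.p14). One marker gene and the sum that holds it are not reported here.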

Additional observations from a re-analysis of the deposited data

Results flagged for a closer look

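In 12 of 93 groups of 4 libraries of one time, 1 library lay apart from the other 3 by Dixon's ratio (gap over range, critical value 0.829). Chance flags about 1 in 20 groups of independent like samples, but these groups share the same 12 libraries, mix 4 treatments and hold genes named partly for their large changes, so that rate gives no chance value for the 12. All 12 involved the ibrutinib library at 8 h or the SPX5551 library at 12 h. At 8 h the ibrutinib library was low for AURKB (ratio 0.832, log2 CPM 7.43 against 7.72 to 7.78 in the others) and BIRC5 (0.886, 7.94 against 8.28 to 8.32), and high for BUB1B (0.901, 6.56 against 6.07 to 6.12).

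At 12 h the SPX5551 library was low for ASPM (0.832, log2 CPM 6.73 against 7.72 to 7.92), BUB1B (0.875, 6.12 against 6.46 to 6.51), CENPF (0.895, 7.45 against 8.21 to 8.3), INCENP (0.922, 6.28 against 6.89 to 6.94), KIF14 (0.833, 5.59 against 6.33 to 6.47), KIF20B (0.893, 6.73 against 7.36 to 7.44), KIF23 (0.907, 5.64 against 5.81 to 5.83) and MKI67 (0.893, 8.6 against 9.6 to 9.72). It was high for UBE2C (0.853, 6.37 against 6.02 to 6.07).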

How the results depend on the processing

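Counts of called mitosis genes are given here by comparison, each with its count under the stated setting. Shares of all tested genes under these settings are not given here beyond those stated above. The counts therefore show how the calls move and are no result about mitosis genes as such. Combination against DMSO (4): 1 with RLE factors, 9 with library size only, 0 with no time term, 9 after removing the trends on length and GC, 9 with ibrutinib at 8 h and SPX5551 at 12 h left out, 11 with the 2 groups alone, 2 with limma, and 2 lower with the columns the descriptions name. Ibrutinib against DMSO (0): 3 with no filter and 4 with the descriptions. SPX5551 against DMSO (0): 2 with no filter. Combination against ibrutinib (0): 1 with DESeq2, 1 with library size only, 2 with no filter and 1 without the 2 libraries. Combination against SPX5551 (2): 4 with DESeq2, 1 with RLE, 5 with library size only, 9 with no filter, 0 with no time term, 10 with the trend removed, 0 without the 2 libraries, 0 with limma, and 11 lower with the descriptions. Ibrutinib exposure (14): 9 with RLE, 0 with no time term, 1 without the 2 libraries, 8 with limma, and 14 lower with the descriptions. SPX5551 exposure (2): 6 with no filter, 0 with no time term, 1 with the trend removed, 1 without the 2 libraries and 0 with the descriptions. The interaction (0) had 2 with the descriptions, where its test equals that of SPX5551 exposure by the headers. Every count with the descriptions is likewise a contrast of the same columns under exchanged treatment names. At 8 h against 4 h (23) the count was 10 with no treatment term, and at 12 h against 8 h (10) it was 0 with no treatment term, 20 without the 2 libraries and 0 with the 2 groups alone. The cause of these moves was not tested.

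Leaving out 1 library or 1 time gave 0 to 4 calls for combination against DMSO, 0 to 3 for ibrutinib against DMSO, 0 to 0 for SPX5551 against DMSO, 0 to 1 for combination against ibrutinib, 0 to 8 for combination against SPX5551, 0 to 15 for ibrutinib exposure, 0 to 3 for SPX5551 exposure, 0 to 0 for the interaction, 12 to 28 at 8 h against 4 h, 18 to 25 at 12 h against 4 h and 0 to 13 at 12 h against 8 h. No called change of a named gene reversed in the settings run gene by gene, which leave out the columns of the descriptions. Many such calls did not hold. CENPF with ibrutinib exposure kept its call in 7 of 23 settings and CCNB2 in combination against DMSO in 7 of 24. CCNB1 at 12 h against 4 h kept it in 22 of 22. With 1 library or 1 time left out, 344 of 926 such results no longer passed. With those, ibrutinib exposure is the same contrast with its sign turned. The other treatment comparisons then set other groups of columns against each other, so their calls are not changes of the calls above. Scaling by library size only shifted the median of all genes by 0.1 for combination against DMSO. With 1 library per treatment and time, agents, times and single libraries are only partly separable.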
